A study of Mus musculus with 6 samples.

Results

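The mesothelial genes examined here are 7 markers of the mesothelium, namely Msln, Upk3b, Wt1, Lrrn4, Bnc1, Muc16 and Gpm6a. They were taken by gene name from the non-control spots of the arrays, where 8 probes carry them, out of 36610 gene names in all. Total RNA of 6 mouse ureter samples, 1 array each, was measured 4 days after unilateral ureteral obstruction (UUO), in which 1 ureter is tied so that urine cannot drain. All samples came from mice of the C57BL/6N background aged 2 months. The Col17a1-WT group held 3 samples from males. The Col17a1-KO group held 2 from males, replicates 1 and 2, and 1 from a female, replicate 3. Nothing in the labels says that the samples of a group came from separate animals, so p-values measure only the spread between these samples. All animals of both groups had the obstruction, and no unobstructed ureter was analysed here. The altered part of Col17a1 is not named in the labels, nor whether the change was limited to a cell type. The ureters were measured as bulk RNA, so fewer cells of a type and less RNA per cell cannot be told apart in any of the values that follow.

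The mesothelium is the flat, slippery cell layer that lines the body cavities and covers the organs in them. The ureter runs behind the peritoneum, whose mesothelium lies next to its outer coat, so a dissected ureter may carry some of these cells. Msln encodes mesothelin, a surface protein anchored to the membrane by a lipid, and Muc16 encodes a very large membrane mucin (CA125 in human) that binds mesothelin. Upk3b encodes uroplakin 3B, made by mesothelial cells and also part of the uroplakin plaques of the urothelium. Wt1 encodes a zinc finger transcription factor of the mesothelium and of the podocytes of the kidney. Lrrn4 and Gpm6a encode membrane proteins first described in the nervous system, and Bnc1 encodes basonuclin 1, a zinc finger protein that is also found in basal keratinocytes. No member of the group is known to be made by mesothelial cells alone.

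Intensities were compared on a log2 scale on which 0 is the 75th percentile of all probes of an array and a difference of 1 is a 2-fold change. The 75th percentile lay between 143.7 and 164.9 intensity units, and between 35482 and 36567 of 56605 probes were well above background on each array. The arrays lay on 1 slide with 1 scan time, and correlations between arrays across genes ranged from 0.978 to 0.994. At the brighter probe of the targeted gene, on chromosome 19 from 47720894 to 47720953 (mm9), the Col17a1 values were -2.33, -0.80 and -0.39 in WT and 0.50, 0.53 and 0.40 in the KO group. The KO values were the higher ones without overlap (log2 difference 1.65 ± 0.48, standard error; limma, adjusted p = 0.457), and the second probe differed by 1.10. The targeted gene thus went against the label, so that group is called KO-labelled and every direction rests on the labels. A probe outside the altered part of the gene does not check the genotype. As tissue checks, all 8 umbrella cell genes and all 8 smooth muscle genes listed were well above background on all 6 arrays.

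Of the 7 mesothelial genes, 4 (Msln, Upk3b, Wt1 and Lrrn4) were well above background on every array. Muc16 and Gpm6a were well above background on 4 arrays each, all 3 KO-labelled arrays and 1 WT array, so they entered the test through the group in which they were higher. Bnc1 reached that level on 1 array and was not tested. None of the 6 tested genes passed an adjusted p of 0.05 in limma fitted over 22260 genes, where 0 genes (0%) passed and 2017 (9.06%) had an unadjusted p under 0.05. The same fit over 35069 single probes also called 0 (0%). With 6 arrays and the spread of all genes, simulated 2-fold changes were recovered in 53% of cases and 4-fold changes in 90.4%. These shares do not hold for the members, which varied more. Their standard errors ran from 0.347 to 0.745, where the median over all genes was 0.159.

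**Figure D1:**
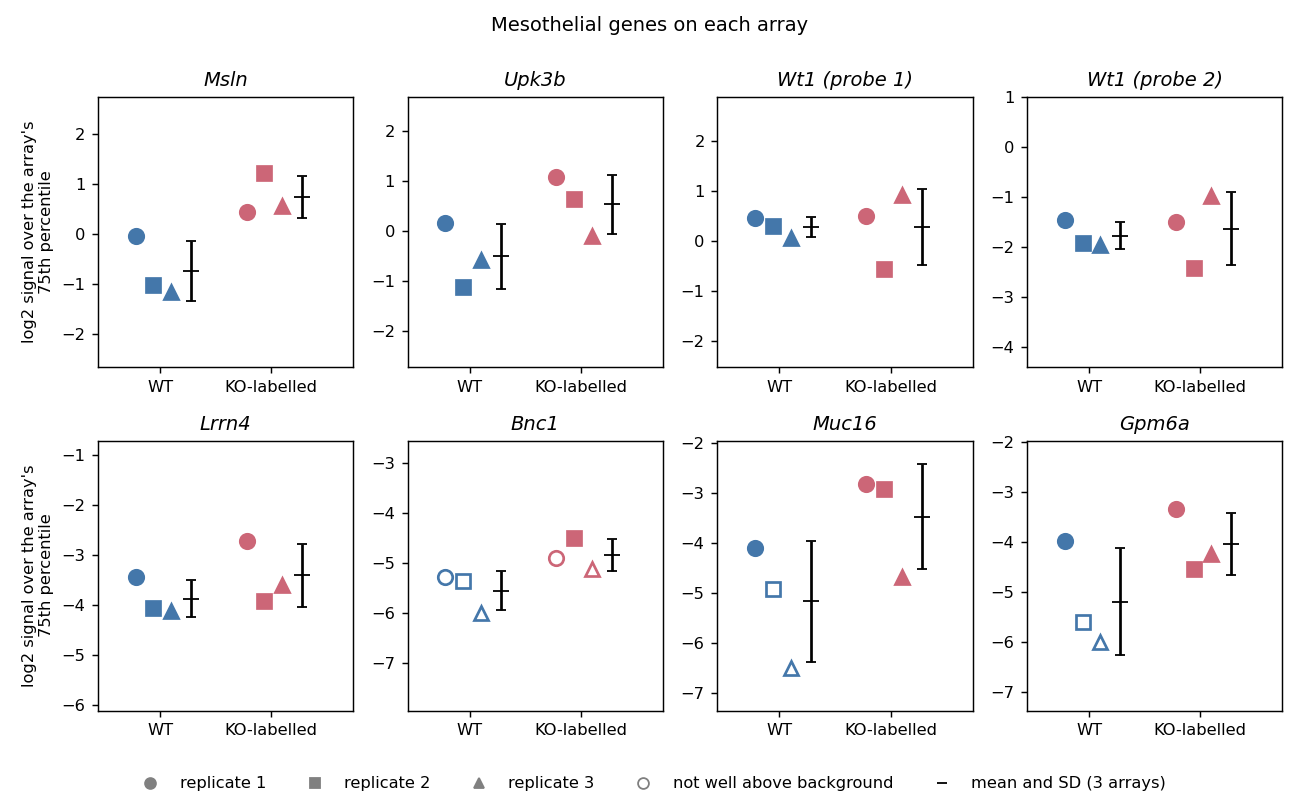
Values of the 8 probes on each of the 6 arrays, as log2 signal over the array's 75th percentile, with WT in blue and KO-labelled in red, each panel spanning the same number of log2 units. Filled symbols were well above background, open symbols were not, and black bars give the mean and SD of 3 arrays. The groups of Msln do not overlap, those of Wt1 have nearly the same mean, and the WT values of Muc16 and Gpm6a spread over more than 2 log2 units.

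Msln had the clearest separation of the groups among the genes measured on every array. Its probe lies on chromosome 17 from 25885569 to 25885628 (mm9, minus strand). The log2 values were -0.04, -1.01 and -1.15 in WT replicates 1 to 3 and 0.44, 1.24 and 0.58 in KO-labelled replicates 1 to 3. In intensity units these were 153.2, 71.3 and 71.5 against 214.9, 389.2 and 216.8. Every KO-labelled value lay above every WT value, and the gap between the groups was narrow because WT replicate 1 stood apart from the other 2 WT arrays. The WT mean was -0.73 ± 0.60 and the KO-labelled mean 0.75 ± 0.43 (SD, n = 3 each). In limma the log2 difference was 1.48 ± 0.35 (standard error; unadjusted p = 0.00513, adjusted p = 0.435), with a 95% interval of 0.64 to 2.32 in the fit over probes. An exact two-sided permutation test gave p = 0.1, the smallest that 3 arrays against 3 allow. Msln was the only 1 of the 6 tested members whose groups did not overlap, against 7.28% of all genes that did so toward higher values and 15.4% in either direction. The probe of Mslnl, the mesothelin-like gene, lies 368 bases away on the opposite strand and was well above background on 1 array only.

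Upk3b was also higher on average, but its groups overlapped. The probe lies on chromosome 5 from 136520522 to 136520581 (mm9, plus strand). Its log2 values were 0.16, -1.13 and -0.58 in WT and 1.07, 0.63 and -0.11 in KO-labelled ureters. WT replicate 1 lay above KO-labelled replicate 3, the female. In limma the log2 difference was 1.04 ± 0.42 (standard error; unadjusted p = 0.0444, adjusted p = 0.536). The 95% interval in the fit over probes ran from 0.05 to 2.03 (exact permutation p = 0.2). The difference ran from 0.735 without WT replicate 2 to 1.38 without WT replicate 1. Upk3bl, the uroplakin 3B-like gene, has probes 16828 and 19548 bases from that of Upk3b and was 1.21 ± 0.44 higher at the brighter probe (difference and standard error; limma, adjusted p = 0.505), again with overlap. Cross-hybridisation between the 2 genes was not tested.

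Wt1 did not follow Msln or Upk3b. At its brighter probe, on chromosome 2 from 105013656 to 105013715 (mm9), the log2 values were 0.46, 0.29 and 0.07 in WT and 0.50, -0.56 and 0.91 in KO-labelled ureters. The WT arrays lay close together, whereas the KO-labelled group held both the highest and the lowest value of the 6. KO-labelled replicate 2, where Msln was highest, had the lowest Wt1. In limma the groups differed by 0.01 ± 0.37 (standard error; adjusted p = 0.997). The 95% interval in the fit over probes was -0.88 to 0.90, which leaves room for a change of nearly 2-fold in either direction. The second probe, on chromosome 2 from 104974028 to 104974087, gave -1.47, -1.91 and -1.95 in WT and -1.49, -2.43 and -0.97 in KO-labelled ureters. It had the same highest and lowest arrays, and the range within the KO-labelled group was 1.48 at the first probe and 1.45 at the second. The sign of the difference was set by single arrays, from -0.307 without KO-labelled replicate 3 to 0.432 without KO-labelled replicate 2. For the antisense gene Wt1os no array lay well above background, so its level is known only as a bound.

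Lrrn4 was dim but measured on every array. Its probe lies on chromosome 2 from 132694490 to 132694549 (mm9, minus strand), with intensities between 8.6 and 24.1 units. The log2 values were -3.45, -4.07 and -4.11 in WT and -2.71, -3.92 and -3.59 in KO-labelled ureters. KO-labelled replicate 1 stood above the rest, and the other KO-labelled arrays lay within the WT range. In limma the log2 difference was 0.47 ± 0.35 (standard error; adjusted p = 0.726), and its 95% interval in the fit over probes was -0.36 to 1.29. The difference was 0.117 without KO-labelled replicate 1 and 0.723 without KO-labelled replicate 2.

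Muc16, the binding partner of mesothelin, had the widest spread of the group. Its probe on chromosome 9 from 18299956 to 18300015 (mm9) gave -4.10, -4.93 and -6.50 in WT and -2.82, -2.93 and -4.68 in KO-labelled ureters. Of the WT arrays only replicate 1 was well above background. The female KO-labelled mouse lay below WT replicate 1, so the groups overlapped. In limma the log2 difference was 1.70 ± 0.75 (standard error; adjusted p = 0.57), with a 95% interval of -0.07 to 3.47 in the fit over probes. The difference ran from 1.04 without WT replicate 3 to 2.30 without KO-labelled replicate 3.

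Gpm6a, a proteolipid-related membrane glycoprotein, showed the same 4 arrays above background as Muc16. At its probe on chromosome 8 from 56145539 to 56145598 (mm9) the log2 values were -3.97, -5.61 and -5.99 in WT and -3.34, -4.53 and -4.23 in KO-labelled ureters. WT replicate 1 exceeded 2 of the 3 KO-labelled arrays. In limma the log2 difference was 1.16 ± 0.58 (standard error; adjusted p = 0.604), and it ran from 0.755 without WT replicate 3 to 1.77 without WT replicate 1. Bnc1, probed on chromosome 7 from 89111978 to 89112037 (mm9), stayed below that level on all 3 WT arrays and reached it in KO-labelled replicate 2 alone. Its log2 values were -5.28, -5.35 and -6.00 in WT and -4.90, -4.49 and -5.11 in KO-labelled ureters, without overlap. Since 5 of its 6 values were not well above background, no fold is given. With no filter on dim probes limma gave Bnc1 an adjusted p of 0.711 among 36610 genes.

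KO-labelled replicate 1 was the highest array for Upk3b, Lrrn4, Muc16 and Gpm6a. The promoters of 5 of the 7 members are held in the RefSeq promoter table (GRCm38.p6), as 6 promoters. Msln and Wt1 are absent from it, so the motif counts say nothing about these genes. The 250 bases before each start were searched on both strands for short motifs. The letters GGAATG, the core bound by TEAD factors, the DNA-binding partners of the YAP coactivator, were found in 3 of the 6, against 12.64% of all 32851 promoters. Those 3 belong to Upk3b, Lrrn4 and Gpm6a, and they are shown because they hold the motif. The promoter of Muc16, whose highest array was the same, held no match, nor did the second Gpm6a promoter or that of Bnc1. A match is a description of letters, and no factor was measured here. The motif, or its reverse complement CATTCC, stands in capitals in each sequence.

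Upk3b, chr5:136038246-136038495, plus strand: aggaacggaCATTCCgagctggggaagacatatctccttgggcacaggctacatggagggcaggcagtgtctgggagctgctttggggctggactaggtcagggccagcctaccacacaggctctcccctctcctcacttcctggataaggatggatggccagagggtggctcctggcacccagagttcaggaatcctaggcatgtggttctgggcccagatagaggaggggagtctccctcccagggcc
Lrrn4, chr2:132880863-132881112, minus strand: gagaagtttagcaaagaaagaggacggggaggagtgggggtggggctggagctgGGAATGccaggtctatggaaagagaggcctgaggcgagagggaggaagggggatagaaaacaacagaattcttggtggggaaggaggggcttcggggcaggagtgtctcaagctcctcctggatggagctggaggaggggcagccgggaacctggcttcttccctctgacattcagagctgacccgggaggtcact
Gpm6a, chr8:54779184-54779433, plus strand: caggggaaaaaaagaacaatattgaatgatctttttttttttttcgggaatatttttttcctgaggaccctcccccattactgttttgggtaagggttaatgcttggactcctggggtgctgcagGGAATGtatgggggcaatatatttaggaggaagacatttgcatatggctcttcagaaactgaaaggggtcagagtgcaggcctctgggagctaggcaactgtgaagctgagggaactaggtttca

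The matches begin 241, 196 and 125 bases before the start in Upk3b, Lrrn4 and Gpm6a. Of the other motifs searched, GGGCGG, bound by SP and KLF factors, was in the promoter of Bnc1 alone (32.74% of all promoters), TATAAA in 1 of the 2 Gpm6a promoters (12.37%), and GCGGGGGCG, a site shared by EGR factors and WT1, in none of the 6 (2.57%).

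The 4 genes measured on every array did not share 1 pattern. Likeness was taken as the root mean square distance between 2 array profiles, each centred on its own mean over the 6 arrays, so that a small value means a like pattern. The 2 probes of Wt1 were 0.11 apart, which shows how close 2 readings of 1 gene came. Msln and Upk3b were 0.52 apart, Upk3b and Lrrn4 0.48, and Wt1 and Lrrn4 0.49. Msln and Wt1 were 1.03 apart and Upk3b and Wt1 0.90. Among all 15 pairs of tested members the farthest were Wt1 and Muc16 at 1.41. These distances describe 6 arrays and carry no test.

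**Figure D2:**
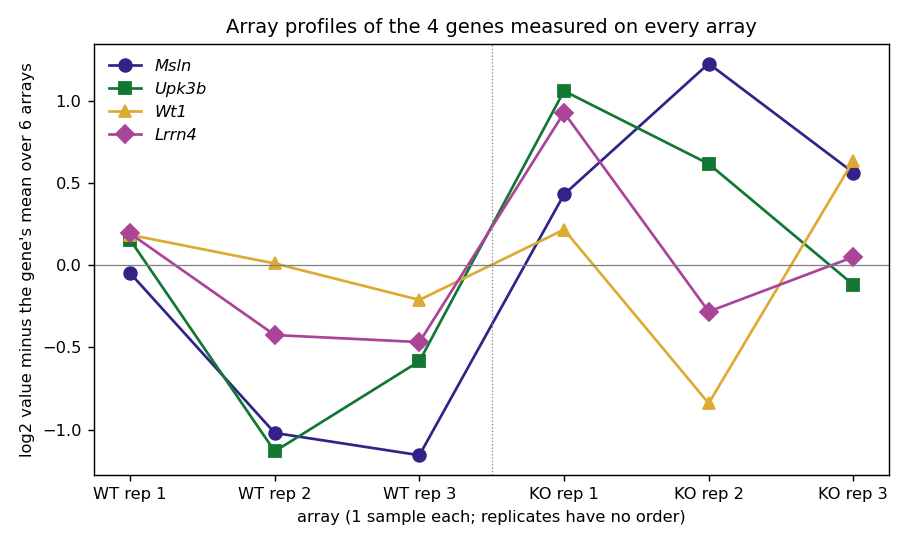
Log2 values of Msln, Upk3b, Wt1 and Lrrn4 on each array after subtracting the gene's mean over the 6 arrays, with WT on the left of the dotted line and KO-labelled on the right. On KO-labelled replicate 2 Msln reaches its highest value and Wt1 its lowest, and on WT replicate 1 the 4 genes lie close together.

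Over the 6 tested members the median log2 difference was 1.10, beside -0.000871 over all 22260 genes. All 6 differences were above 0, as were 49.8% of all genes, and 2 of them (Msln and Upk3b) had an unadjusted p under 0.05 toward higher values, as did 4.35% of genes. Muc16 and Gpm6a passed the filter through the KO-labelled group, so this count and median support nothing about the members. Over the 4 genes measured on every array the median was 0.753. With normexp background, in which an offset of 50 intensity units is added to every signal, differences of dim probes shrink by construction. There Msln differed by 1.06 and Upk3b by 0.767, whereas Lrrn4, Muc16 and Gpm6a differed by 0.079, 0.231 and 0.102.

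**Figure D3:**
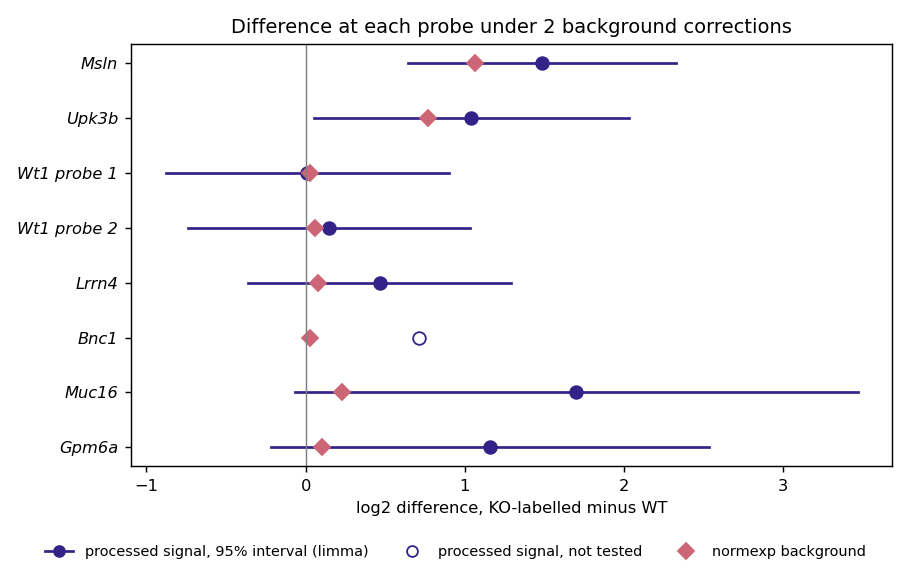
Log2 difference, KO-labelled minus WT, at each of the 8 probes, as circles for the processed signal with 95% intervals from limma and as diamonds with normexp background. The Bnc1 circle is open because that probe was not tested. Msln and Upk3b keep most of their difference with normexp background, and the diamonds of Lrrn4, Bnc1, Muc16 and Gpm6a lie near 0.

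Other genes of the mesothelium were then read from a list of 12 that are not members. Of these 10 were well above background on all arrays, and Calb2 (calretinin) and Pkhd1l1 on none. Of the 10, 6 were higher and 4 lower, 0 had an unadjusted p under 0.05, and the median log2 difference was 0.16. Without WT replicate 1, 2 had such a p toward higher and 1 toward lower values (11.9% of all genes in either direction), and the median was again 0.16. The extremes were Nkain4, a sodium pump-interacting protein, at 0.58 ± 0.40 (difference and standard error) and Aldh1a2, a retinoic acid-making enzyme, at -0.21 ± 0.61. Rspo1, a Wnt pathway agonist, differed by 0.19 ± 0.46 and Pdpn, podoplanin, by 0.12 ± 0.33. The list's mean centred value lay between -0.13 and -0.01 in WT and between -0.03 and 0.12 in KO-labelled ureters. These are means over 10 genes, which vary less than a single gene does. The list mixes bright and dim genes. Anxa8 ran from 5.02 to 5.81 and Pdpn from 4.38 to 5.57 over the arrays, but Nkain4 from -2.00 to -0.45. Msln ran from -1.15 to 1.24. The list was not limited to genes made by mesothelial cells alone, and the part of other cells in its values was not tested. Its median and its distances therefore do not measure the mesothelium by itself.

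Genes that the mesothelium shares with other epithelia were read next. All 5 of them, Upk1b and the keratins Krt7, Krt8, Krt18 and Krt19, had differences above 0, with a median of 0.91. Of these, 4 had an unadjusted p under 0.05 in limma, as did 4.35% of all genes toward higher values. None passed after adjustment over all genes (0 of 5). Krt7 differed by 0.95 ± 0.20 (adjusted p = 0.418), Krt19 by 0.82 ± 0.18, Krt18 by 0.80 ± 0.21 and Krt8 by 0.91 ± 0.32, and Upk1b had the largest difference at 1.11 ± 0.52. The groups did not overlap for Krt7, Krt18 and Krt19 and overlapped for Krt8 and Upk1b. Of all genes, 7.28% did not overlap toward higher values. Without WT replicate 2 the median was 0.80 and without KO-labelled replicate 3 it was 1.09. These genes are also made by the urothelium, which lines the ureter, and their part in the values of Msln and Upk3b was not tested.

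Markers of the umbrella cells, the superficial cells of the urothelium, had nearly the array order of Upk3b, with WT replicate 1 and KO-labelled replicate 2 exchanged. The mean centred value of the 8 listed genes was 0.48, -0.995 and -0.61 in WT and 0.93, 0.32 and -0.13 in KO-labelled ureters. KO-labelled replicate 1 was highest and WT replicate 2 lowest for both, and the profile of Upk3b was 0.20 from that of the list. The smooth muscle list had the same highest and lowest arrays and was 0.30 from Upk3b, the epithelial genes above were 0.38 away and the other mesothelial genes 0.67. Wt1 was 0.79 from the umbrella cell list, and several lists lay at about equal distances from it. These were neuron and Schwann cell genes at 0.38, other mesothelial genes at 0.42, podocyte and gonad genes at 0.44 each and fibroblast genes at 0.45. Msln was 0.60 from the umbrella cell list, 0.54 from the epithelial genes above and 0.81 from the other mesothelial genes. The median single gene was 0.50 from Wt1, 0.75 from Upk3b and 0.88 from Msln. A list mean varies less than a single gene does, so a distance little below these medians shows little likeness. Among umbrella cell genes all 8 differences were above 0, from 0.06 for Pparg to 1.11 for Upk1b. Krt20, at 0.88 ± 0.21 (limma, adjusted p = 0.433), had an unadjusted p under 0.05, as did 4.35% of all genes toward higher values. The median was 0.84, and it was 0.48 without WT replicate 2, where 7 of 8 were above 0. Without WT replicate 1 it was 1.29, and 7 of the 8 had an unadjusted p under 0.05, as did 11.9% of all genes in that setting.

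**Figure D4:**
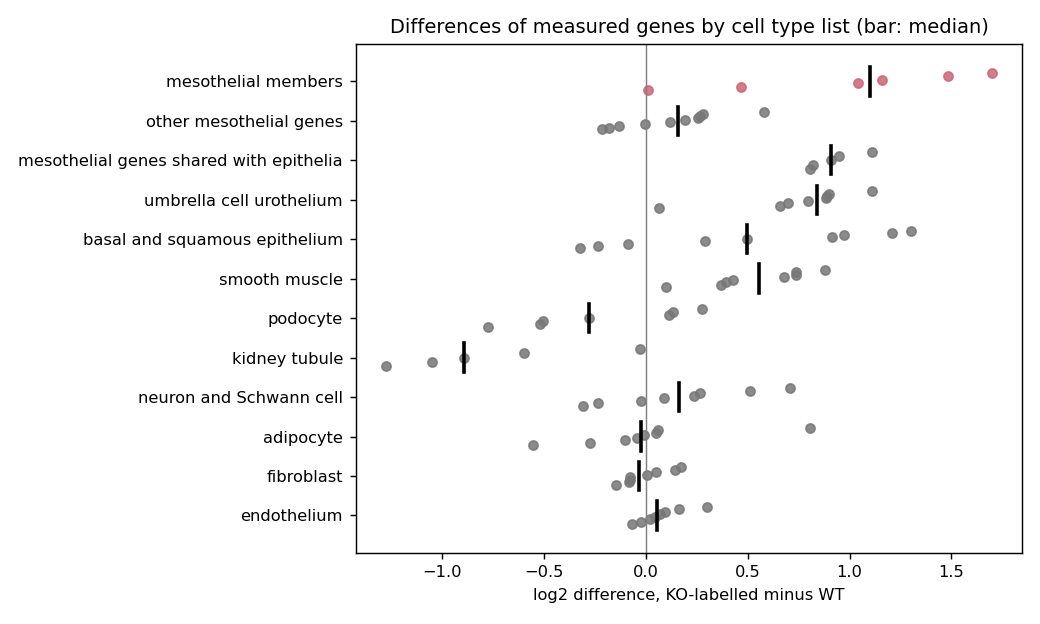
Log2 difference, KO-labelled minus WT, of each measured gene in 12 of the lists, with the median of each list as a black bar and the members in red. The members range from 0.01 for Wt1 to 1.70 for Muc16, the other mesothelial genes lie on both sides of 0, and the epithelial and umbrella cell lists lie mostly to the right of 0.

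Lists of other cell types that could share these genes were read beside the members. Podocyte genes bear on Wt1: Nphs1 (nephrin) was below that level on all arrays, and the median of the 7 measured genes, 3 of them higher, was -0.28. Podxl had the highest difference of that list, at 0.28 ± 0.26. The 4 kidney tubule genes measured on every array had a mean centred value of 1.70 in WT replicate 2 and between -0.55 and -0.16 elsewhere, while Wt1 in WT replicate 2 lay within the range of the other WT arrays. All 5 measured tubule genes were lower, from -1.27 ± 0.87 for Slc22a6 to -0.03 ± 0.15 for Aqp2, and Lrp2, an endocytic receptor, was -0.89 ± 0.14 (limma, adjusted p = 0.398) with an unadjusted p under 0.05, as were 4.71% of all genes toward lower values. Lrp2 was well above background on 4 arrays only and so entered the test through the WT group. The median of the 5 was -0.89, and it was 0.04 without WT replicate 2, where 3 of 5 were higher. The part of kidney tissue in the members' values was not tested.

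In the basal and squamous epithelium list, which bears on Bnc1, 6 of 9 measured genes were higher. Krt5, Krt13 and Krt14 differed by 0.91 ± 0.19, 1.21 ± 0.42 and 1.30 ± 0.59, and Trp63 was lowest at -0.32 ± 0.10. Krt5, Krt13 and Trp63 had an unadjusted p under 0.05 in limma, as did 9.06% of all genes in either direction. None passed after adjustment (limma, adjusted p from 0.418 to 0.498). The list's median of 0.49 was -0.12 without WT replicate 1. In the neuron and Schwann cell list, which bears on Gpm6a, 5 of 8 were higher with a median of 0.16. Tubb3 was lowest at -0.31 ± 0.20, and Mbp, a myelin protein, differed by 0.26 ± 0.11 (limma, adjusted p = 0.536). All 8 smooth muscle genes had differences above 0, with a median of 0.55, from 0.10 for Smtn to 0.88 for Myh11, and 0 had an unadjusted p under 0.05. That median was 0.27 without WT replicate 2.

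Fibroblast, endothelial and adipocyte genes had medians near 0. These were -0.03 for fibroblasts (from Col1a1 at -0.15 to Dpt at 0.17), 0.06 for endothelium (Emcn at -0.07 to Pecam1 at 0.30) and -0.03 for adipocytes (Lipe at -0.55 to Retn at 0.81). Without WT replicate 2, 0 of the 8 fibroblast genes and 1 of the 8 adipocyte genes were higher. Of 8 genes of the gonad and female tract, 4 were measured. Ovgp1 and Inha, an inhibin chain, differed by 0.55 ± 0.21 and 0.50 ± 0.16 (limma, adjusted p = 0.533 and 0.470), while Foxl2 was -0.14 ± 0.11. Both Ovgp1 and Inha had an unadjusted p under 0.05, as did 4.35% of all genes toward higher values. Relatives of the members were 4 higher and 4 lower of 8 measured, with a median of 0.14. They ran from Bnc2 at -0.17 ± 0.13 to Upk3bl, and Upk3a, the other uroplakin 3 chain, differed by 0.66 ± 0.63, Lrrn4cl by -0.04 ± 0.31 and Gpm6b by -0.06 ± 0.11.

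Genes with an array profile most like the mean of the 4 mesothelial genes measured everywhere were sought among 14846 other genes on all 6 arrays. That mean was 0.12, -0.64 and -0.60 in WT and 0.66, 0.18 and 0.28 in KO-labelled ureters. The 6 nearest were Retn, Mreg, Styk1, Gal3st1, Amt and Slc14a1, at distances from 0.080 to 0.111, where the median gene was 0.512 away. Retn encodes resistin, a secreted protein of mouse fat cells, and Slc14a1 a urea transporter. Their log2 differences were between 0.63 and 0.81, which follows from choosing genes by likeness to that mean. The mean itself joins 4 genes that did not share 1 pattern. The nearest to Msln alone were the transcription factors Irf4 and Elf5 at 0.208 and 0.282 and the retinol carrier Rbp4 at 0.299, where the median gene was 0.877 away.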

How the data were processed

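Per the labels, Cy3-labelled cRNA of total RNA was hybridised to 1-colour arrays, 1 per sample. The scanner software was Agilent Feature Extraction, version 12.0.3.1 per the submitters' processing notes. Per the file headers, its deposited intensity values have background subtraction and detrending within an array, with no scaling between arrays, and probe coordinates refer to mm9. Further normalisation by the authors: not given in the sources used here.

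Spots flagged as outliers were set to missing, spots of a probe were averaged and each array's 75th percentile was subtracted from its log2 signal. Symbols came from RefSeq (GRCm38.p6) for 35405 probes and from the files for 21200. A probe was kept where all arrays of 1 group or of both were well above background, and the brightest stood for a gene. KO-labelled and WT were compared across all genes in R 4.3.3 by limma 3.58.1 (lmFit, eBayes), calling genes at a Benjamini-Hochberg adjusted p of 0.05, and again across all probes. Exact permutation tests over arrays were two-sided. The number of arrays limits the precision, and no spot was saturated.

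The text names all members, Col17a1, the extremes of each list and list genes at an unadjusted p under 0.05, and the nearest genes by profile, not sex-linked. Some list extremes are not reported here. The other relatives, mesothelial genes and tubule or podocyte genes named were chosen after their values were seen. Members, lists and tests were chosen with earlier results of these data known. In 5 simulations with 200 changed genes among 22260, drawn with the moderated variances, a mean of 10.4 genes were called falsely. Alternatives covered background, normalisation, filter, probe choice, variance, weights, sex, replicate block and each array left out.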

Additional observations from a re-analysis of the deposited data

How the results depend on the processing

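Genes past the threshold numbered 498 with array weights, which did not converge and spanned 30.2-fold between arrays, 1 (no member) with a replicate block and 0 to 1 with each array left out, the 1 (no member) without KO-labelled replicate 2. All other settings gave 0. The count of members past the threshold was 2 (Msln and Muc16) with array weights, 0 to 0 with each array left out and 0 in the other settings. In the weighted fit 498 of all 22260 genes were called, and before adjustment 27.3% lay below 0.05. Muc16 had entered the test through the KO-labelled group and the weights did not converge, so the count of 2 supports nothing about the members. The members' median difference was 0.167 with normexp background and 0.791 to 1.57 with each array left out. Wt1 changed sign to -0.307 with sex as a covariate, a fit in which the lone female sample carries no weight, and to -0.299 without WT replicate 2 and KO-labelled replicate 3 together, and ran from -0.307 to 0.432 with each array left out. Msln, Upk3b, Lrrn4, Muc16 and Gpm6a were above 0 in all settings in which they were measured, from 1.06 to 1.83 for Msln and 0.735 to 1.38 for Upk3b. The replicate block holds 1 array of each group per number, so it cannot change a difference, and the members' median stayed at 1.1. It changed the standard errors, from 0.745 to 0.18 for Muc16 and from 0.353 to 0.362 for Msln. Same-numbered arrays had correlations of their deviations of 0.581, -0.162 and 0.000971. With 3 arrays per group these values do not settle whether the numbers pair the samples. Without WT replicate 1, 4 members had an unadjusted p under 0.05, as did 11.9% of all genes. Of those 4, Muc16 and Gpm6a were then well above background on KO-labelled arrays only, so the count supports nothing about the members. Without WT replicate 2, 1 member and 6.15% of genes had such a p. The counts of the cell type lists with arrays left out were added after the data were seen. For Muc16, Gpm6a and Bnc1 the signal over background limits any difference.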
